A study of Mus musculus with 14 samples.

Results

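The subject here is the set of 10 cytokine genes whose transcripts were counted in cultured mouse bone marrow cells: Lif, Il6, Osm, Il1a, Il1b, Il1rn, Tnf, Il4, Il13 and Csf1. They were chosen by symbol, with earlier results of these data known. They were found in both count tables, as 10 of 55367 gene symbols, and all 10 passed the filter on low counts in both experiments. That filter left 15794 genes of experiment 1 and 13456 of experiment 2. Transcripts were measured, not secreted protein.

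All 14 libraries were polyA RNA of lineage-negative bone marrow primary cells, that is, marrow depleted of mature blood cells, from mice of wild-type genotype, whose age and strain the labels do not give. The medium held the proteins SCF, IL6 and IL3, so the cells of every group met added IL6 whatever they transcribed from their own Il6 gene. In the first experiment, 3 libraries came from cells carrying a control lentivirus with luciferase, and 3 from cells carrying SETBP1-D868N, a mutant form of the nuclear protein SETBP1, in the same pSMAL lentiviral vector. In the second experiment all cells carried SETBP1-D868N, and 4 libraries each came from 4 days with DMSO, the solvent, or with 2.5 µM PF-9363, an inhibitor of MYST histone acetyltransferases. The first comparison asks what the mutant does to expression, and the second what the inhibitor does in cells that already carry the mutant. The labels do not say that the replicates came from separate animals or transductions, so p-values measure the spread between these libraries, which may be technical.

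Cytokines are small secreted proteins through which blood cells signal to each other. LIF, IL6 and oncostatin M form 1 family, whose receptors share the signalling chain gp130. IL1 alpha and IL1 beta act through the same receptor, which the IL1 receptor antagonist blocks. IL4 and IL13 are the type 2 cytokines, made by mast cells and basophils as well as by T cells. TNF is an inflammatory cytokine, and CSF1 drives the survival and growth of monocytes and macrophages. Many cytokine genes have a low resting level, are switched on by NF-kB and other factors, and have transcripts of short life that carry AU-rich elements.

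The first experiment held 60147266 to 68730322 counts per library and the second 7083731 to 10359093. Levels are given as CPM, counts scaled to the TMM-adjusted library total in the usual way, and the tables were scaled separately. A count of 3, taken as the floor, equalled 0.0437 to 0.0499 CPM in experiment 1, and 0.290 to 0.424 CPM in experiment 2. These floors use library totals without the TMM factor. The experiments also differed in input, 500 ng against 100 ng of total RNA, and in who made the libraries, so no level was tested between them. The row of mouse Setbp1 rose from 0.0892 to 0.339 CPM with SETBP1-D868N (adjusted p = 0.000660), which is only a partial check, since the labels do not give the species of the transgene. Though the cells started as lineage-negative, S100a9, a neutrophil gene, averaged 7255 CPM in the luciferase and 7177 CPM in the DMSO libraries, and Cpa3, a mast cell protease, 1789 and 419 CPM. In such bulk RNA, fewer cells of a type and less RNA per cell cannot be told apart.

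With SETBP1-D868N, 9 of the 10 cytokine transcripts were lower than with luciferase and none was higher, at an adjusted p under 0.05 in edgeR's quasi-likelihood test. Over all genes tested, 22.7% were called lower and 24.5% higher. With PF-9363, all 10 were higher than with DMSO and none was lower, where 36.6% of all genes tested were called higher and 39.4% lower. The set was chosen with earlier results of these data known, so its counts are no test against these shares. The median log2 fold change of the 10 genes was -0.51 with SETBP1-D868N and 2.38 with PF-9363, and over all genes tested it was 0.0043 and -0.038. The summed level of the 10 genes was 495 to 513 CPM in the luciferase libraries and 327 to 338 CPM in the SETBP1-D868N libraries. It was 181 to 243 CPM with DMSO and 818 to 985 CPM with PF-9363. The 2 comparisons share no library. Groups that do not overlap, as given for single genes below, were common. They were found for 8960 of 15794 genes tested with SETBP1-D868N and for 9459 of 13456 with PF-9363.

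**Figure D1:**
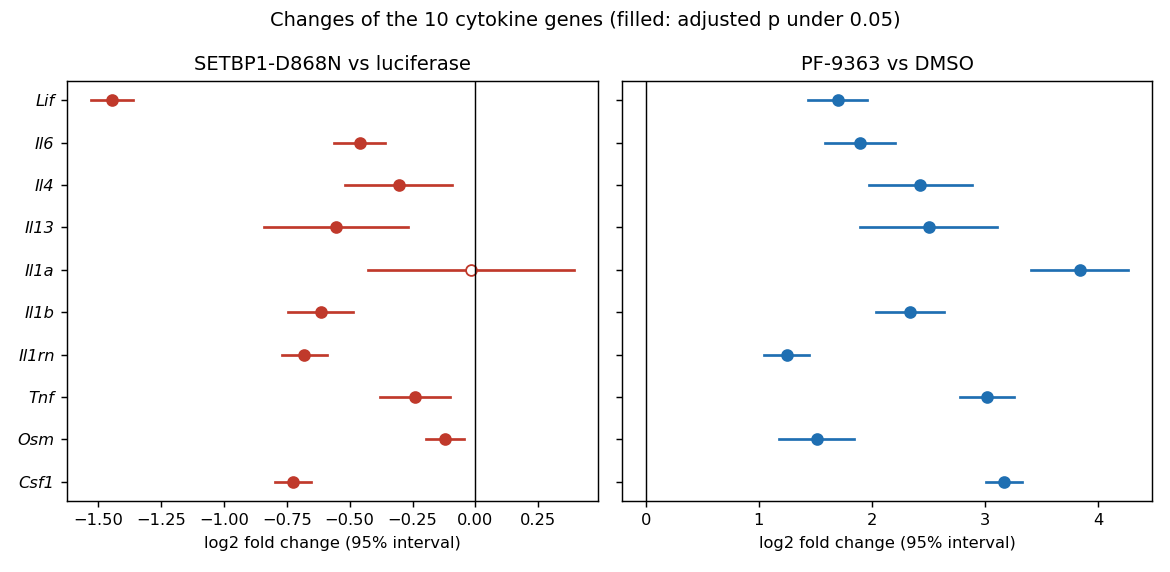
Log2 fold change (x axis) of each cytokine gene (y axis) with its 95% interval, SETBP1-D868N against luciferase on the left and PF-9363 against DMSO on the right. Filled points have an adjusted p under 0.05. The left points lie between -1.44 and -0.019 and the right ones between 1.25 and 3.84.

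Several of the genes are neighbours in the genome (GRCm38, GENCODE M21). Osm (chr11:4236420-4241026) and Lif (chr11:4257557-4272514) lie 16530 bp apart on the plus strand. Il4 (chr11:53602982-53618669) and Il13 (chr11:53631324-53634702) lie 12654 bp apart on the minus strand, and Il1a (chr2:129299610-129309972) and Il1b (chr2:129364570-129371139) 54597 bp apart, also on the minus strand. The remaining genes stand alone among the 10: Il1rn at chr2:24336853-24351494, Tnf at chr17:35199381-35202007, Il6 at chr5:30013114-30019981 and Csf1 at chr3:107741048-107760469.

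The promoters of 9 of the 10 genes were found in the RefSeq table (GRCm38.p6). Osm had no entry. The 250 bases before each start were searched on both strands for short motifs of factors known to act on cytokine genes. The NF-kB letters GGGNNTTTC were in 3 of the 9 windows (Il6, Il4 and Csf1) and in 3.72% of 32841 windows of all promoters. The AP-1 letters TGANTCA were in 4 (Lif, Il6, Il1a and Il1rn) and in 6.75% of all. The GATA letters AGATAA were in 1 (Il13) and in 9.99% of all. The NFAT letters GGAAAA were in 5 (Il4, Il13, Il6, Il1b and Tnf) and in 20.4% of all. The PU.1 and ETS letters AGGAAG were in 3 (Il6, Il1a and Tnf) and in 29.5% of all, and the C/EBP letters TTGCNNNAA were in 1 (Il4) and in 8.29% of all. These matches describe letters and do not show that a factor binds. The windows below are the 3 with NF-kB letters and the 1 with GATA letters, that of Il13. A relation between the motifs and the changes was not tested. Capitals mark matches to the NF-kB, AP-1 and GATA letters.
Il6, chr5:30012864-30013113, plus strand, 5′ to 3′: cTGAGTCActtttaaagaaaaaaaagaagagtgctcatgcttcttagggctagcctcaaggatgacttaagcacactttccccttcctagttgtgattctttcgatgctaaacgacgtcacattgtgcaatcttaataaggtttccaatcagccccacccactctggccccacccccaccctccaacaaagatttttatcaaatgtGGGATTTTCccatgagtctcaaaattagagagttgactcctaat
Csf1, chr3:107760470-107760719, minus strand, 5′ to 3′: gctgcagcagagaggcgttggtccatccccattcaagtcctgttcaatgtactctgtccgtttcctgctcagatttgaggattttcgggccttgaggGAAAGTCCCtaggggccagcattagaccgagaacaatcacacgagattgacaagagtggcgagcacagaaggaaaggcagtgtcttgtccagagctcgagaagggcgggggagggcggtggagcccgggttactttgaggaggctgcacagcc
Il4, chr11:53618666-53618915, minus strand, 5′ to 3′: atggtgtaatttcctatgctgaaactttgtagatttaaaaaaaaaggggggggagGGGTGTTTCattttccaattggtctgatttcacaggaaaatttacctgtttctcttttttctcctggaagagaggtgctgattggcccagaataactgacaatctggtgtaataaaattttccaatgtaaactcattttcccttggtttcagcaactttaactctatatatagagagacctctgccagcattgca
Il13, chr11:53634703-53634952, minus strand, 5′ to 3′: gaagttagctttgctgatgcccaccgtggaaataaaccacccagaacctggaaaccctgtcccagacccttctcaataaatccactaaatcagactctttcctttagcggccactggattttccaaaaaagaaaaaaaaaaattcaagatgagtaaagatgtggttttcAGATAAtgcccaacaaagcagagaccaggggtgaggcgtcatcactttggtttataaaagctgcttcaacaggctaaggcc
In the Il6 window the NF-kB letters (GGGATTTTC) lie 44 to 36 bases before the start, overlapping an NFAT match 40 to 35 bases before it, and the AP-1 letters (TGAGTCA) 249 to 243 bases before it. In Csf1 the NF-kB letters are on the other strand (GAAAGTCCC), 153 to 145 bases before the start. In Il4 they lie 195 to 187 bases before the start (GGGTGTTTC), and the window holds 4 NFAT matches. In Il13 the GATA letters lie 81 to 76 bases before the start.

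The transcripts also share a feature of their ends. AU-rich elements contain the pentamer ATTTA, at which proteins such as tristetraprolin bind and speed up decay. In the longest protein-coding 3′ UTR of each gene, ATTTA occurred 10 times in Il6, 8 times in Tnf, 7 times in Lif, 6 times in Osm, 4 times each in Il1b and Csf1, 3 times each in Il13 and Il1a, and 2 times in the 104 bases of Il4. It did not occur in the 1864 bases of Il1rn. The median over 19911 genes with such a UTR of at least 100 bases was 1. Because UTRs differ in length, the count per kb is the fairer measure, with a median of 1.35 over all these genes. It was 19.2 in Il4, 10.5 in Tnf, 8.72 in Il1b, 5.995 in Il6, 5.90 in Osm and 4.05 in Il13. Il1a (2.725), Lif (2.20) and Csf1 (1.895) lay nearer to the median, above 74.2%, 66.3% and 60.8% of all these genes. The longer form TATTTAT was in 9 of the 10 transcripts and in 29% of all genes. Il1rn was the gene without it. No relation between these elements and the changes was tested.

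Lif, a cytokine named for its action on leukaemic cells, had the lowest log2 fold change of the 10 with SETBP1-D868N. It stood at 67.9, 72.8 and 72.3 CPM in luciferase libraries 1 to 3 and at 25.4, 26.4 and 26.5 CPM in the SETBP1-D868N libraries. The groups lay far apart, and the level with the mutant was 36.8% of that with luciferase (log2 fold change -1.44, SE 0.038, adjusted p = 2.41e-10). Of all genes tested, 0.779% had a lower log2 fold change. With DMSO Lif was at 15.0, 18.0, 12.4 and 21.5 CPM, and with PF-9363 at 51.3, 49.3, 58.1 and 58.9 CPM. Every PF-9363 library was above every DMSO library, a 3.24-fold rise (log2 1.70, SE 0.13, adjusted p = 4.97e-11).

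Osm, its neighbour and family member, encodes oncostatin M. It was at 94.2, 99.3 and 97.4 CPM with luciferase and at 85.8, 89.1 and 92.5 CPM with SETBP1-D868N. The groups did not overlap but were close, with a log2 fold change of -0.12 (SE 0.034, adjusted p = 0.0114). That call was lost when luciferase library 2 was left out (adjusted p = 0.0642) and when counts were scaled by library size alone (adjusted p = 0.106). With PF-9363 Osm rose from 39.0, 41.6, 37.8 and 57.9 CPM to 113, 111, 137 and 142 CPM. DMSO library 4 was the highest control, still under every treated library, and the rise was 2.85-fold (log2 1.51, SE 0.15, adjusted p = 6.91e-06).

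Within a library the count of Lif over that of Osm does not depend on scaling. It was 0.721 to 0.742 with luciferase and 0.286 to 0.297 with SETBP1-D868N, with no overlap (change of the log2 ratio -1.32). With 3 against 3 libraries the two-sided exact permutation test cannot go below p = 0.1, which it reached (adjusted p = 0.2 over 4 ratios). With PF-9363 the ratio went from 0.329 to 0.433 in the DMSO libraries to 0.413 to 0.455 (change of the log2 ratio 0.20, exact permutation p = 0.0857, adjusted p = 0.114). The groups overlapped, and no change of the ratio was called.

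Il6, the third gene of the family, stood at 52.7, 56.1 and 57.0 CPM with luciferase and at 38.5, 39.1 and 42.8 CPM with SETBP1-D868N. All mutant libraries were lower, by -0.46 on the log2 scale (SE 0.046, adjusted p = 6.91e-06). With DMSO it was at 8.61, 14.1, 13.8 and 14.7 CPM and with PF-9363 at 41.7, 41.3, 51.6 and 56.6 CPM. DMSO library 1 was below the other controls, and all treated libraries were above every control (log2 1.89, SE 0.15, adjusted p = 7.80e-10).

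**Figure D2:**
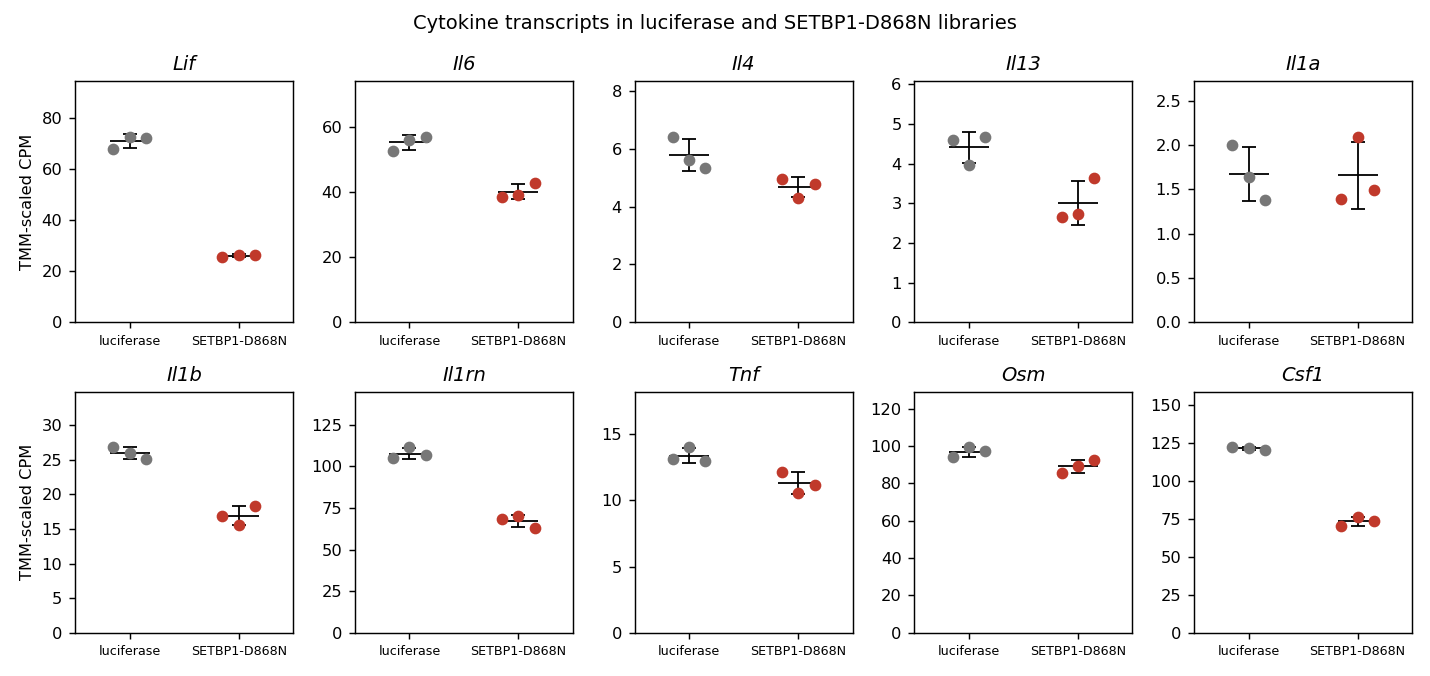
TMM-scaled CPM (y axis, from 0) of each cytokine gene in the 3 luciferase (grey) and 3 SETBP1-D868N (red) libraries, each point 1 library, with the mean and SD in black. The groups overlap for Il1a, at 1.38 to 1.99 CPM against 1.39 to 2.09 CPM, and for none of the other 9 genes. Of all 15794 genes tested, 8960 had groups that did not overlap.

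Among the IL1 genes, Il1a encodes IL1 alpha, which is active from its precursor form. It was the member that SETBP1-D868N did not change detectably. Its level was 1.99, 1.64 and 1.38 CPM with luciferase and 1.39, 2.09 and 1.49 CPM with the mutant, and the groups overlapped. The log2 fold change was -0.019 with a 95% interval of -0.43 to 0.39 (adjusted p = 0.945), which allows a change as large as that of Il4 or Tnf. The sign also turned, to 0.031, with scaling by library size alone. With PF-9363, in contrast, Il1a rose most of the 10: from 1.19, 1.29, 1.59 and 0.905 CPM to 15.1, 15.6, 18.8 and 22.3 CPM. This was a 14.3-fold rise on 10 to 17 counts per DMSO library and 121 to 206 per PF-9363 library (log2 3.84, SE 0.21, adjusted p = 7.26e-16). Of all genes tested, 0.609% had a higher log2 fold change.

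Il1b encodes IL1 beta, whose precursor is cut by caspase-1. It was at 26.8, 26.0 and 25.0 CPM with luciferase and at 16.9, 15.5 and 18.4 CPM with SETBP1-D868N. The groups were well apart (log2 -0.62, SE 0.059, adjusted p = 4.89e-06). It rose from 4.55, 6.17, 4.21 and 5.79 CPM with DMSO to 25.4, 24.1, 23.8 and 31.1 CPM with PF-9363, without overlap (log2 2.33, SE 0.15, adjusted p = 1.77e-14).

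Il1rn encodes the antagonist. It stood at 104.8, 111 and 107 CPM with luciferase and at 68.4, 70.0 and 63.1 CPM with SETBP1-D868N, again without overlap (log2 -0.68, SE 0.040, adjusted p = 1.68e-07). With PF-9363 it went from 64.8, 82.4, 76.0 and 94.7 CPM to 175, 176, 200 and 203 CPM. All treated libraries were higher, by 2.37-fold (log2 1.25, SE 0.094, adjusted p = 1.50e-09).

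The balance of agonist and antagonist was read from counts within a library. The count of Il1b over Il1rn was 0.234 to 0.256 with luciferase and 0.222 to 0.291 with SETBP1-D868N, with overlapping groups (exact permutation p = 0.7). It was 0.0554 to 0.0749 with DMSO and 0.119 to 0.153 with PF-9363, 2.10-fold higher and without overlap. The two-sided exact permutation p was 0.0286, the smallest that 4 against 4 libraries allow, and 0.0571 after adjustment over the 4 ratios, so no change was called. Il1a over Il1b went from 0.156 to 0.378 in the DMSO libraries to 0.595 to 0.791 with PF-9363, 2.79-fold higher, with the same exact permutation p of 0.0286 and adjusted p of 0.0571. The test could not call these 2 ratios alone, since 2 of 4 ratios at the smallest p give an adjusted p of 0.0571. With DMSO library 2 left out, these 2 ratios and Lif over Osm had an adjusted exact permutation p of 0.0381. With SETBP1-D868N the ratio of Il1a to Il1b was 0.0551 to 0.0744 against 0.0811 to 0.135, with no overlap (change of the log2 ratio 0.60, exact permutation p = 0.1, adjusted p = 0.2).

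Reads at both IL1 genes carry a limit. Il1a overlaps Gm14023 and Il1b overlaps Il1bos on the opposite strand, and whether the counting used strand is not given in the sources used here. Gm14023 held 54 to 71 counts with luciferase, 31 to 56 with SETBP1-D868N, 7 to 17 with DMSO and 30 to 63 with PF-9363. Il1bos held 169 to 211, 178 to 220, 2 to 16 and 6 to 15 counts in the same groups. The values of Il1a and Il1b are uncertain for this reason, and these counts do not measure by how much.

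**Figure D3:**
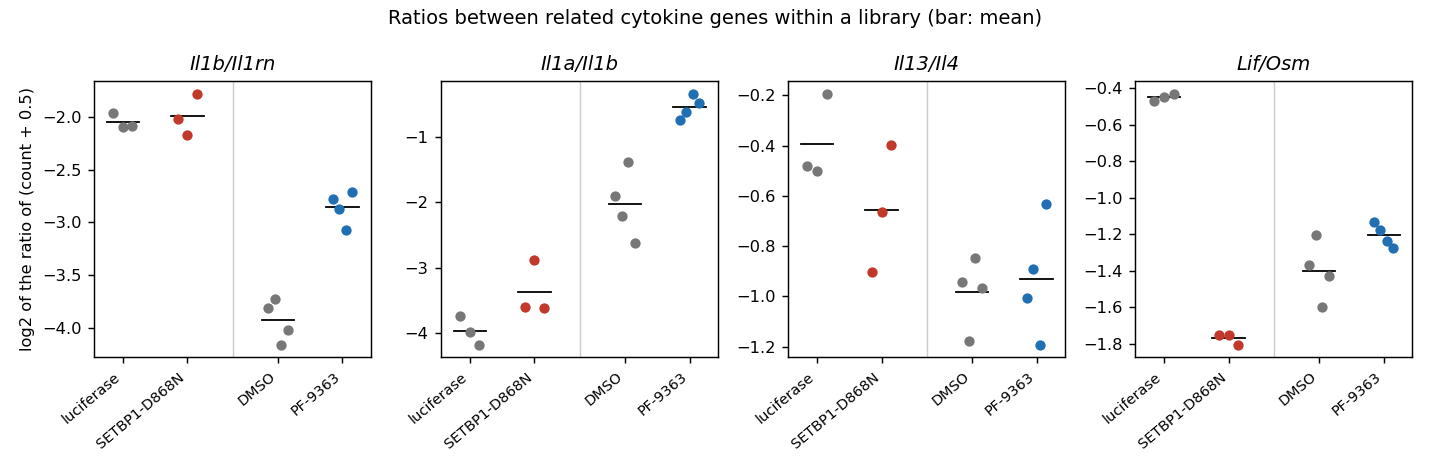
Log2 of the ratio of counts, each with 0.5 added (y axis), for 4 pairs of related cytokine genes in every library of the 4 groups (x axis), each point 1 library and each bar a group mean. Lif over Osm changes by -1.32 from luciferase to SETBP1-D868N, and Il1a over Il1b rises by 1.48 from DMSO to PF-9363.

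Tnf was at 13.1, 14.002 and 13.0 CPM with luciferase and at 12.2, 10.6 and 11.2 CPM with SETBP1-D868N. The difference was small and the groups did not overlap (log2 -0.24, SE 0.063, adjusted p = 0.00773). With DMSO it stood at 6.14, 4.88, 7.29 and 6.34 CPM and with PF-9363 at 51.0, 51.8, 48.5 and 48.8 CPM. The treated libraries lay close together and far above the controls, 8.09-fold higher (log2 3.02, SE 0.12, adjusted p = 2.45e-19). Its neighbour Ltb, which encodes lymphotoxin beta, also fell with SETBP1-D868N (log2 -0.82, adjusted p = 1.11e-06) and rose with PF-9363 (log2 1.20, adjusted p = 2.29e-08), while Lta held at most 8 counts in any library.

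Csf1 encodes the macrophage growth factor. It was at 122, 122 and 120 CPM with luciferase and at 70.4, 76.5 and 73.5 CPM with SETBP1-D868N. The mutant level was 60.4% of the control level, with no overlap (log2 -0.73, SE 0.033, adjusted p = 1.98e-08). With PF-9363 it rose from 40.3, 43.3, 43.3 and 38.7 CPM to 341, 335, 406 and 407 CPM. This was an 8.99-fold rise (log2 3.17, SE 0.077, adjusted p = 1.49e-23), and of all genes tested 1.56% had a higher log2 fold change.

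The type 2 cytokine genes had fewer counts than most of the set. Il4 stood at 6.43, 5.60 and 5.36 CPM with luciferase and at 4.97, 4.31 and 4.80 CPM with SETBP1-D868N. The groups did not overlap, with a log2 fold change of -0.31 (SE 0.097, adjusted p = 0.0209), but the call was lost without luciferase library 1 (adjusted p = 0.0956) or without SETBP1-D868N library 2 (adjusted p = 0.0764). With PF-9363 it rose from 1.19, 2.09, 2.06 and 1.81 CPM to 9.56, 8.88, 11.8 and 8.77 CPM. This rested on 12 to 22 counts per DMSO library and 69 to 93 per PF-9363 library (log2 2.43, SE 0.22, adjusted p = 8.03e-11).

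Il13 was at 4.60, 3.96 and 4.68 CPM with luciferase and at 2.65, 2.72 and 3.64 CPM with SETBP1-D868N. SETBP1-D868N library 3 was the highest of its group and still under every control (log2 -0.55, SE 0.13, adjusted p = 0.00415). With DMSO it was at 0.594, 0.896, 1.12 and 0.905 CPM, from 6 to 12 counts, and with PF-9363 at 4.73, 4.76, 5.13 and 5.63 CPM, from 33 to 52 counts. All treated libraries were higher (log2 2.50, SE 0.30, adjusted p = 1.18e-08). The count of Il13 over Il4 overlapped between groups in both comparisons, with changes of the log2 ratio of -0.26 (exact permutation p = 0.3, adjusted p = 0.4) and 0.053 (exact permutation p = 0.8, adjusted p = 0.8).

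**Figure D4:**
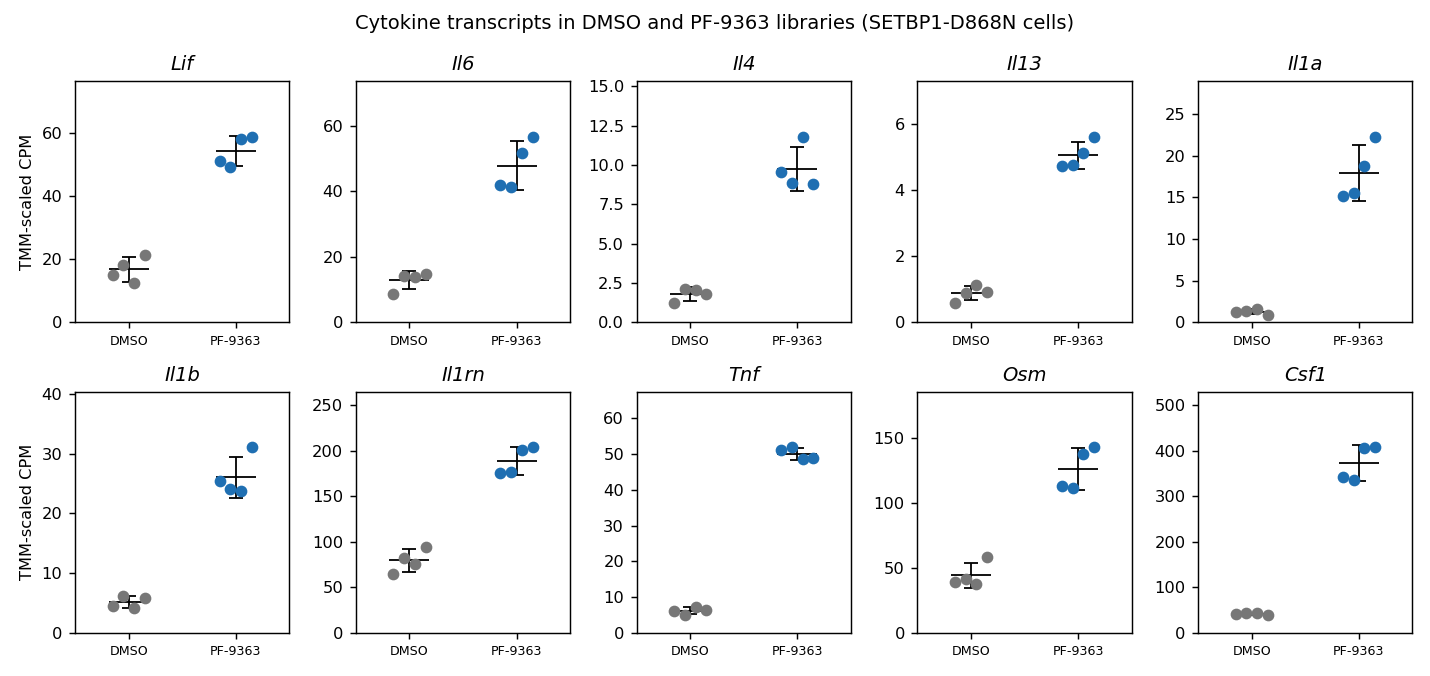
TMM-scaled CPM (y axis, from 0) of each cytokine gene in the 4 DMSO (grey) and 4 PF-9363 (blue) libraries of SETBP1-D868N cells, each point 1 library, with the mean and SD in black. No gene's groups overlap, and Csf1 goes from 38.7 to 43.3 CPM up to 335 to 407 CPM. Of all 13456 genes tested, 9459 had groups that did not overlap.

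Among the PF-9363 libraries, numbers 3 and 4 were the higher pair for Csf1, Il1rn, Osm, Lif, Il6, Il1a and Il13, but not for Tnf, Il4 or Il1b. Their TMM factors were 0.909 and 0.905, against 0.939 and 0.940 in the other PF-9363 libraries and 1.07 to 1.09 with DMSO. The part of this difference in the spread was not tested. Scaling by library size alone, which uses no such factor, left all 10 genes higher with PF-9363. It moved the median log2 fold change of all genes from -0.038 to -0.27 and the share of all calls that were higher from 48.1% to 36.2%. In the first experiment it moved that share from 51.9% to 62.1%, and 8 cytokine genes stayed lower. The median log2 fold change of the 10 genes with PF-9363 was 2.38 with TMM and 2.15 with library size alone.

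Levels between genes can be compared only per length, here as RPKM over the exons of each gene. With luciferase, Osm had the highest level (42.7 RPKM), followed by Csf1 (23.0) and Il6 (22.8), whose ranges overlapped, then Il1rn (19.4), Lif (16.3), Il1b (13.6), Tnf (8.15), Il4 (4.72), Il13 (3.66) and Il1a (0.847). With SETBP1-D868N, Osm was again first (39.2 RPKM), and Lif, at 6.00 RPKM, stood below both Il1b (8.88) and Tnf (6.90). With DMSO, Osm (19.4 RPKM) and Il1rn (14.4) came first with overlapping ranges, then Csf1 (7.84). Il6, Lif, Tnf and Il1b, at 5.28 to 2.72 RPKM, each overlapped the next, as did Il13 (0.730) and Il1a (0.630), which came last after Il4 (1.46). With PF-9363, Csf1 was first (70.5 RPKM), above Osm (55.4) and above Il1rn (34.1) and Tnf (30.5), whose ranges overlapped. Il6 followed at 19.7 RPKM, then Il1b (13.7) and Lif (12.5), which overlapped, Il1a (9.09) and Il4 (7.95), which overlapped, and Il13 (4.20).

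Shares within the set were set side by side. Of the summed CPM of the 10 genes, Csf1 made up 20.0% ± 2.85 (SD, n = 4) with DMSO and 41.5% ± 0.578 (SD, n = 4) with PF-9363, and Il1rn 37.8% ± 1.41 and 21.0% ± 0.394. Lif made up 14.1% ± 0.336 (SD, n = 3) with luciferase and 7.82% ± 0.0355 (SD, n = 3) with SETBP1-D868N, and Osm 19.3% ± 0.186 and 26.7% ± 0.591. These shares are descriptions and were not tested.

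Counts of called genes in this and the following lists stand against the shares over all genes tested. Those were 22.7% lower and 24.5% higher with SETBP1-D868N, and 36.6% higher and 39.4% lower with PF-9363. Receptors and signalling chains of the cytokines were mostly lower with SETBP1-D868N: 11 of 12 tested receptor genes fell and none rose (median log2 fold change -0.48). The lowest values were those of Il1r2, the decoy receptor that binds IL1 without signalling (log2 -0.97, 89.7 to 45.7 CPM, adjusted p = 2.91e-07), and Il13ra1, a chain of the IL13 receptor (log2 -0.85, adjusted p = 2.88e-07). With PF-9363, 8 of 12 rose and 1 fell (median 1.12). Csf1r, the receptor of CSF1, went from 62.0 to 423 CPM (log2 2.77, adjusted p = 1.47e-23), and Il1r1, the signalling IL1 receptor, from 1.90 to 12.4 CPM (log2 2.69, adjusted p = 4.39e-12). Il1r2 went the other way, from 179 to 55.1 CPM (log2 -1.71, adjusted p = 1.44e-13). Osmr, the oncostatin M receptor chain, had 0 counts in all 14 libraries. On library totals without the TMM factor, this allows up to 0.0499 CPM in experiment 1 and up to 0.424 CPM in experiment 2.

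All 12 genes of the list of NF-kB factors and inhibitors rose with PF-9363 (median log2 fold change 1.72), led by Relb, an NF-kB subunit (log2 3.40, 4.67 to 49.4 CPM, adjusted p = 1.10e-18), and Nfkbiz, a nuclear member of the inhibitor family (log2 2.74, adjusted p = 3.96e-11). With SETBP1-D868N, 8 of the 12 fell and none rose (median -0.38), with Relb (log2 -0.74, adjusted p = 3.28e-07) and Bcl3 (log2 -0.55, adjusted p = 4.41e-07) the lowest. The list holds activators and inhibitors alike, and transcripts do not measure NF-kB activity. Of the factors of the type 2 cytokine locus, 11 of 12 rose with PF-9363 and none fell (median 1.15). Gata3, which opens the Il4 and Il13 locus in T cells, had 0 to 2 counts with DMSO and 10 to 26 with PF-9363 (adjusted p = 3.06e-07). Its PF-9363 level was at least 7.12-fold higher against a floor of 3 counts per DMSO library, taken without the TMM factor. Maf, a factor acting on Il4, rose by 2.52 on the log2 scale (adjusted p = 3.62e-20). With SETBP1-D868N, 8 fell and 1 rose (median -0.18): Maf (log2 -0.77, adjusted p = 1.37e-06) and Mitf (log2 -0.62, adjusted p = 4.82e-07) were the lowest, and Gata2 rose (log2 0.21, adjusted p = 3.29e-05).

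**Figure D5:**
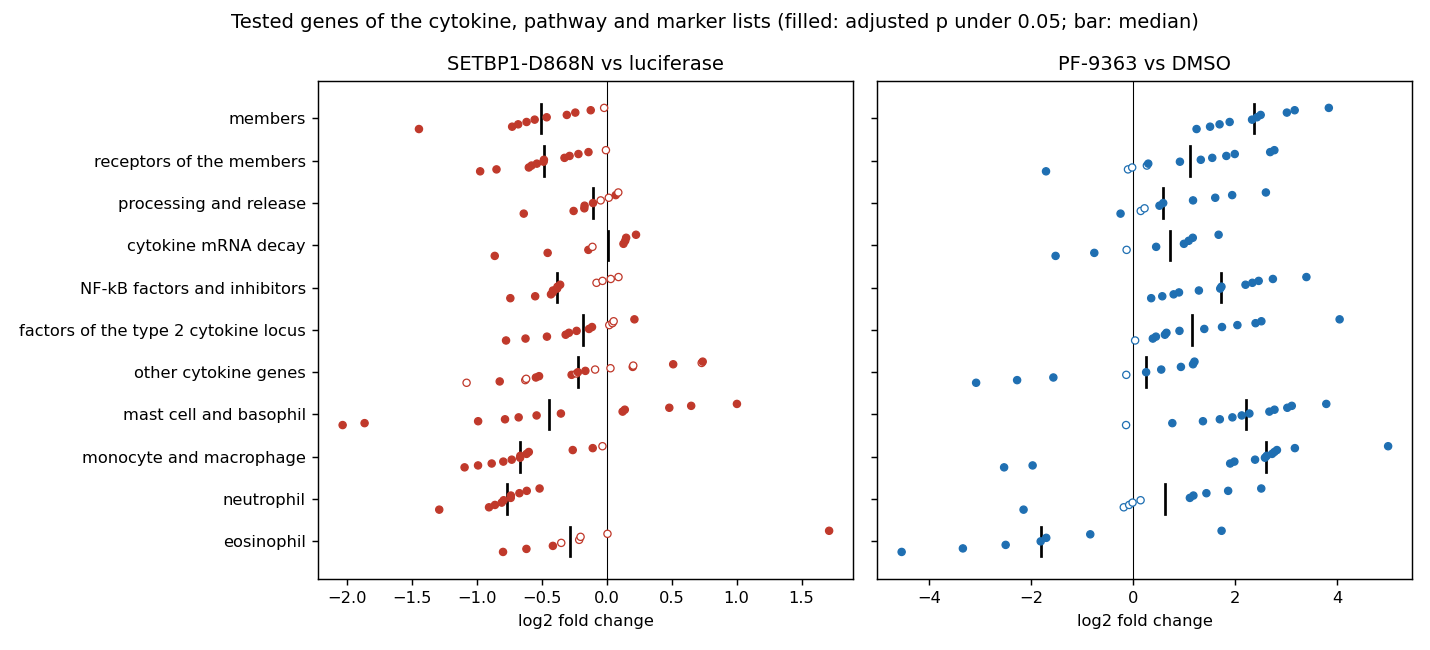
Log2 fold change (x axis) of each tested gene in the cytokine set, the pathway lists and 4 marker lists (y axis), SETBP1-D868N against luciferase on the left and PF-9363 against DMSO on the right. Filled points have an adjusted p under 0.05 and bars are medians, which for the cytokine set are -0.51 and 2.38.

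Genes that process cytokine precursors split. With PF-9363, 6 of 9 rose and 1 fell (median log2 fold change 0.59): Nlrp3, the inflammasome sensor (log2 2.60, adjusted p = 7.30e-21), and Casp4 (log2 1.94, adjusted p = 6.89e-15) rose most, and Pycard, the inflammasome adaptor, fell (log2 -0.24, adjusted p = 0.00463). With SETBP1-D868N, 5 fell and 1 rose (median -0.10), Nlrp3 by -0.64 (adjusted p = 9.19e-08) and Pycard by -0.25 (adjusted p = 2.25e-05), with Adam17, which sheds TNF, higher by 0.071 (adjusted p = 0.0311). The call of Adam17 was lost with RLE scaling, with DESeq2, with the replicate block, with genes kept at 1 count in any library, and without any 1 library other than SETBP1-D868N library 3. Of the 8 genes that control decay of cytokine transcripts, 5 rose and 2 fell with PF-9363 (median 0.73). Over all genes tested, 36.6% were called higher and 39.4% lower. Zfp36, which encodes tristetraprolin (log2 1.68, adjusted p = 1.27e-12), and Rc3h1, which encodes roquin (log2 1.17, adjusted p = 2.67e-13), were the highest, and Hnrnpd (log2 -1.52, adjusted p = 2.01e-18) and Khsrp (log2 -0.76, adjusted p = 1.51e-10), both of which bind AU-rich elements, were lower. With SETBP1-D868N, 4 rose and 3 fell (median 0.011), with Zfp36l1 (log2 -0.86, adjusted p = 1.42e-08) and Zfp36 (log2 -0.45, adjusted p = 1.89e-06) lowest and Elavl1 (log2 0.23, adjusted p = 8.19e-05) and Khsrp (log2 0.15, adjusted p = 0.00103) highest.

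Other cytokine genes moved in both directions. Of 31 listed, 9 passed the count filter in the second experiment, of which 5 rose and 3 fell with PF-9363 (median log2 fold change 0.26). Ltb (log2 1.20, adjusted p = 2.29e-08) and Flt3l (log2 1.18, adjusted p = 6.42e-05) were the highest, while Il12a (log2 -3.08, 31 to 48 counts down to 1 to 8, adjusted p = 1.41e-07) and Il15 (log2 -2.27, adjusted p = 2.22e-09) were the lowest. In the first experiment 17 passed, of which 3 rose and 6 fell with SETBP1-D868N (median -0.22), with Ltb (log2 -0.82, adjusted p = 1.11e-06) and Il27 (log2 -0.54, adjusted p = 0.0185) lowest and Kitl (log2 0.74, adjusted p = 0.0219) and Il12a (log2 0.51, adjusted p = 0.00161) highest. Csf2 and Il3, growth factors of myeloid cells, were at 0 in all DMSO libraries and held 3 to 12 and 1 to 10 counts with PF-9363, too few to be tested. Other untested genes of the list went the other way. Ctf1 held 2 to 10 counts with DMSO and 0 with PF-9363, Tslp 3 to 16 and 0 to 2, and Clcf1 4 to 17 and 1 to 5. In the first experiment Csf2 was tested and not called (log2 0.030, adjusted p = 0.948 in edgeR's quasi-likelihood test). These low-count genes are named here after their values were seen.

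Marker genes of several cell types also changed, and not all in the direction of the cytokine genes. The shares over all genes tested were 36.6% higher and 39.4% lower with PF-9363, and 24.5% higher and 22.7% lower with SETBP1-D868N. The summed level of 12 mast cell and basophil markers was 1322 to 1709 CPM with DMSO and 5530 to 6651 CPM with PF-9363 (11 of 12 higher), and 6015 to 6267 against 6337 to 6445 CPM in the luciferase and SETBP1-D868N libraries (5 higher, 7 lower). The sum with SETBP1-D868N hides opposite moves. Prss34 (855 to 1713 CPM) and Mcpt8 (999 to 1396 CPM) were among the 5 higher, and Cpa3 (1789 to 1232 CPM) and Tpsb2 (460 to 127 CPM) among the 7 lower. For 12 monocyte and macrophage markers the summed level was 3694 to 3750 against 9616 to 11356 CPM with PF-9363 (10 higher, and Ly6c2 and Ccr2 lower), and 3300 to 3466 against 2230 to 2476 CPM with SETBP1-D868N (11 lower). For 10 neutrophil markers it was 14473 to 17661 against 19351 to 20995 CPM with PF-9363 (5 higher, 1 lower), and 22084 to 22937 against 12008 to 14573 CPM with SETBP1-D868N (all 10 lower). Eosinophil markers summed to 654 to 848 against 254 to 350 CPM with PF-9363 (6 of 7 lower, 1 higher), and to 758 to 809 against 596 to 727 CPM with SETBP1-D868N (3 of 8 lower, 1 higher). Dendritic cell markers summed to 54.7 to 67.6 against 161 to 205 CPM with PF-9363 (2 of 4 higher, 1 lower) and to 420 to 455 against 215 to 239 CPM with SETBP1-D868N (6 of 8 lower). The part of these cell type markers in the cytokine values was not tested. The 8 T cell and innate lymphoid cell markers summed to 10.4 to 12.8 CPM with DMSO and 72.3 to 99.2 CPM with PF-9363, where Il7r, the 1 tested gene, went from 11.6 to 82.8 CPM. Of the others in these libraries, Cd3d held 0 to 2 counts with DMSO and 1 to 11 with PF-9363, Cd4 and Trac held 0 to 2 counts in any library, and Cd3e, Cd3g, Cd8a and Trbc2 held 0. In the first experiment the list summed to 27.4 to 28.2 CPM with luciferase and 14.7 to 18.0 CPM with SETBP1-D868N, with 2 of 4 tested genes lower. The 9 erythroid and megakaryocyte markers summed to 43.8 to 51.1 CPM with DMSO and 216 to 240 CPM with PF-9363 (3 of 4 tested higher). They summed to 277 to 294 CPM with luciferase and 299 to 326 CPM with SETBP1-D868N (4 of 8 tested higher, 2 lower). Most of the rise of this list with PF-9363 was in Itga2b, from an average of 32.3 to 202 CPM. Hbb-bt and Pf4 rose by less, and Klf1 was not called.

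Genes near the cytokine genes did not all follow them. Rad50, the gene next to Il13, was 0.17 higher on the log2 scale with SETBP1-D868N (adjusted p = 0.00486) and changed by -0.58 with PF-9363 (adjusted p = 1.36e-07). Ckap2l, 2397 bp from Il1a, was higher by 0.093 with SETBP1-D868N (adjusted p = 0.0203) and changed by -2.49 with PF-9363 (adjusted p = 0.000155). Castor1, next to Osm, followed it, at -0.62 with SETBP1-D868N (adjusted p = 0.000131) and 0.93 with PF-9363 (adjusted p = 0.000882). With PF-9363, Kif3a, 1014 bp from Il4, was higher (log2 0.90), as were Ahcyl1 near Csf1 (0.59) and Dnajb6 near Il6 (0.28). Tyms near Il6 (log2 -0.83) and Psd4 near Il1rn (-0.14) were lower. With SETBP1-D868N, Ahcyl1 (log2 0.14) and Tyms (0.17) were higher, and Kif3a, Dnajb6 and Psd4 were not called. The other neighbours outside the set, apart from Ltb, were not called or not tested.

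Across the 14 libraries, with log2 levels centred within each experiment, Pearson's r between members was 0.775 to 0.985 with a median of 0.958. The lowest was that of Lif and Il1a. Among 10341 other genes the most like Tnf was Batf, an AP-1 family factor (r = 0.998), and the most like Csf1 were Tarm1 and Slc15a3 (r = 0.999 each). The gene most like Il4 was Tlr7 (r = 0.995), that most like Il1b was Vwa5a (r = 0.995), that most like Il1a was Lamp1 (r = 0.994), and that most like Il1rn was Upp1 (r = 0.994). For Osm it was Coq10a (r = 0.993), for Il13 Mink1 (r = 0.993), for Lif Rap1gap2 (r = 0.991) and for Il6 Abtb2 (r = 0.990). These values are descriptions with no test, since all points share the same groups, libraries and depths.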

How the data were processed

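The deposited values are raw counts for each gene symbol, per the labels, in 1 table per experiment, and are whole numbers. STAR, DESeq2 and the builds GRCm38 and mm10 are named in the submitters' processing notes, without versions. Annotation and strand handling are not given in the sources used here. Groups follow the sample titles, and 0 columns were left unmapped.

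Everything else was computed here with R 4.3.3 and edgeR 4.0.16, per experiment: filterByExpr (minimum count 10, minimum total 15), TMM scaling and the quasi-likelihood test with robust estimation and the group as the factor. Adjustment of p-values was by Benjamini-Hochberg over all genes tested, with calls at an adjusted p under 0.05. Count ratios within a library, with 0.5 added to each count, were compared by two-sided exact permutation tests and adjusted over 4 pairs. RPKM used the exon length of GENCODE M21. Limits at 3 counts cover counting error only.

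Alternatives were RLE or library-size scaling, 2 other filters (any library with 1 count, or an average of 10 counts), DESeq2 1.42.0, limma-voom (limma 3.58.1), no robust estimation, a pseudocount of 1 for ratios, the replicate number as a block, and leaving out each library. All 10 cytokine genes are named, and of each pathway list up to 2 called genes per direction with the largest log2 fold change. The genes with r nearest to 1 were sought among genes tested in both experiments with at least 5 CPM. The members and lists were chosen with earlier results of these data known.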

Additional observations from a re-analysis of the deposited data

Results flagged for a closer look

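Il6 in DMSO library 1, at 8.61 CPM, stood apart from the other DMSO libraries, whose highest value was 14.7 CPM: its gap to the nearest library was 0.863 of the group's range, above the 0.829 that marks an outlying value among 4. Chance marks about 1 in 20 such groups.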

How the results depend on the processing

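With PF-9363, all 160 values of the cytokine genes under the alternatives kept their direction and call, and 132 of 140 did with SETBP1-D868N. The exceptions were 4 lost calls: Osm with library size alone (log2 -0.073) and without luciferase replicate 2 (-0.10), and Il4 without luciferase replicate 1 (-0.22) and without SETBP1-D868N replicate 2 (-0.25). The uncalled change of Il1a turned positive with library size alone (0.031) and without luciferase replicate 1 (0.13), SETBP1-D868N replicate 1 (0.090) or SETBP1-D868N replicate 3 (0.049), and ranged from -0.23 to 0.13 over the libraries left out. The uncalled changes of log2 ratios turned sign for Il1b over Il1rn without SETBP1-D868N replicate 3 (-0.042, range to 0.15 over the libraries left out), and for Il13 over Il4 without DMSO replicate 2 (-0.012) or PF-9363 replicate 4 (-0.046, range to 0.14). Leaving out each library in turn gave 0 to 3 changed ratios with PF-9363, 3 of them without DMSO replicate 2. It gave 0 with SETBP1-D868N, where so few libraries allow no call by the exact test. In DMSO replicate 2 the count of Lif over Osm was 0.433, the highest with DMSO and above the lowest with PF-9363, 0.413. Without that library, the groups did not overlap for 3 ratios.

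Replicate numbers did not pair the libraries: same-numbered deviations correlated at -0.097 to -0.037 for SETBP1-D868N with luciferase and at -0.04 to 0.008 for PF-9363 with DMSO, and not every library correlated best with its own number. With the replicate block, 9 cytokine genes were called lower with SETBP1-D868N and 10 higher with PF-9363, as without it. No ratio could be called with the block, since an exact sign-flip test over 3 or 4 pairs cannot reach p under 0.05.

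Counts of the pathway lists moved by over 1.5 times in several settings. The count that moved most often was that of processing genes higher with SETBP1-D868N, in 10 of 14 alternatives. Several counts moved with library size alone: with SETBP1-D868N, processing genes higher went from 1 to 2 and lower from 5 to 3, NF-kB genes higher from 0 to 2 and type 2 locus factors higher from 1 to 3. With PF-9363, other cytokine genes higher went from 5 to 3, receptors lower from 1 to 3 and type 2 factors lower from 0 to 1. With genes kept at 1 count in any library, other cytokine genes went from 5 to 9 higher and from 3 to 6 lower. The 1 processing gene higher with SETBP1-D868N, Adam17, went to 0 with RLE scaling, with DESeq2, with the replicate block, at 1 count in any library and when any 1 library other than SETBP1-D868N replicate 3 was left out. NF-kB genes higher went from 0 to 1 without robust estimation or without SETBP1-D868N replicate 1. Depth limits Il4, Il13 and Il1a in the second experiment, at 6 to 22 counts per DMSO library.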
